A study of Homo sapiens with 54 samples.

Results

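H9 hMSN-like cells, which the study derived from H9, a line of human embryonic stem cells, and patterned toward the medium spiny neurons of the striatum, received a single dose of 1 mM dopamine and were sequenced 1 h later (Acute 1 h, 3 libraries). The control was the 3 libraries labelled PBS of the same 1 mM experiment. These 6 of the 54 libraries of the series, 53 of which had a gene table here, were picked by their titles alone and not by any measured value. Every culture was unmodified H9 patterned with the same Activin A protocol, so the comparison rests on 1 cell line. Dopamine was prepared in ascorbic acid and given by exchanging part of the medium, per the study's methods, while the controls are labelled only as PBS. It was not stated whether the PBS cultures had their medium exchanged, nor on which day they were harvested. The effects of dopamine, its vehicle, the medium exchange and the day of culture therefore cannot be told apart in this comparison. The labels call the libraries of a group replicates but do not say that they came from separate differentiations, so p-values measure only the spread between these cultures.

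Dopamine acts on neurons through receptors that are coupled to G proteins, and D1-like receptors raise cAMP while D2-like receptors lower it. Immediate early genes, the transcription factor genes that neurons switch on within minutes of a stimulus, are the usual readout, and the account below goes beyond them. Hypoxia-inducible factors (HIF) are transcription factors whose alpha subunit is hydroxylated by prolyl hydroxylases and degraded when oxygen and iron are at hand, and their targets include genes of glycolysis, angiogenesis and mitophagy. Serum response factor (SRF) with its coactivators, and YAP with TEAD factors, read the state of the actin cytoskeleton and drive contractile and matricellular genes. Wnt proteins act through Frizzled receptors and beta-catenin, and bone morphogenetic proteins (BMPs) through SMAD proteins. Both pathways pattern the forebrain, and both induce their own inhibitors.

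For each gene the deposited tables give reads on exons, reads on introns and their sum, the total gene reads. The 6 libraries held 15772477 to 22152347 total gene reads and 13707122 to 17320571 exon reads. Introns took 21.1%, 21.8% and 19.5% of the gene reads in the PBS libraries and 12.3%, 13.1% and 13.2% at Acute 1 h. The groups did not overlap, with a difference of 7.95 percentage points between the means (two-sided exact permutation p = 0.1, the smallest that 3 libraries against 3 can give). Exon reads and total gene reads were therefore tested separately, and fold changes below are of exon reads after edgeR's TMM scaling unless another kind of read is named. TPM is the level per exon length that the authors deposited, given for the 3 libraries of a group in the order of their replicate numbers or as mean ± SD (n = 3).

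Marker genes of neurons and neural progenitors were abundant in all 6 libraries, whereas the defining genes of striatal medium spiny neurons were low. DRD1 and DRD2, the dopamine receptor genes that divide these neurons into their main classes, had a mean TPM of 1.61 ± 0.895 and 2.97 ± 0.641 in PBS, and PPP1R1B, which encodes DARPP-32, had 22.2 ± 2.15. Genes of cortical glutamatergic neurons stood far higher in the same libraries, with a TPM of 1059 ± 26.2 for NEUROD6, 407 ± 63.6 for NEUROD2 and 75.5 ± 4.35 for SLC17A7, the vesicular glutamate transporter. The 11 striatal markers summed to a TPM of 106 to 122 in PBS and the 6 glutamatergic markers to 1715 to 1900. By RNA level the data thus go against the label as far as these markers reach. The cells are called H9 hMSN-like cells only as the study names them. The study itself found DARPP-32 protein in part of the neurons by immunostaining, and striatal marker genes by QRT-PCR. Levels of different genes in bulk RNA do not give the share of cells of a type. TTR, which choroid plexus cells secrete, varied widely between libraries of 1 group, at 1974, 2673 and 503 in PBS and 835, 318 and 1186 at Acute 1 h. Its groups overlapped and it did not pass the test. The 6 markers of choroid plexus and other epithelium summed to a TPM of 551 to 2787 in PBS and 395 to 1276 at Acute 1 h, and their part in the results below was not tested.

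Exposure to 1 mM dopamine for 1 h went with changes across much of the transcriptome that were mostly small. Of 16694 genes tested in exon reads, 7592 (45.5%) passed the test (adjusted p-value under 0.05), with 3813 higher (22.8%) and 3779 lower (22.6%). In a fit that also held the other libraries of the 1 mM experiment, 15 in all, 2845 genes passed, and 7236 when the first library of Acute 24 h was left out. DEGs, genes that passed with a change of 1 or more on the log2 scale in either direction and whose higher group averaged 1 TPM or more, numbered 1002 (6.00%), namely 433 higher (2.59%) and 569 lower (3.41%). In total gene reads, 15277 of 23711 genes passed (64.4%; 30.9% higher and 33.6% lower) and 1339 were DEGs (5.65%), 644 higher (2.72%) and 695 lower (2.93%). Genes that were DEGs in the same direction by both kinds of read numbered 340 higher and 311 lower. The TPM of the 3 libraries of a group did not overlap with that of the other group for 429 of the 433 exon DEGs that were higher and for 555 of the 569 that were lower. The median log2(fold change) was 1.33 among the former and -1.30 among the latter. These shares of all genes tested are the background against which each count of list members is set below.

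**Figure D1:**
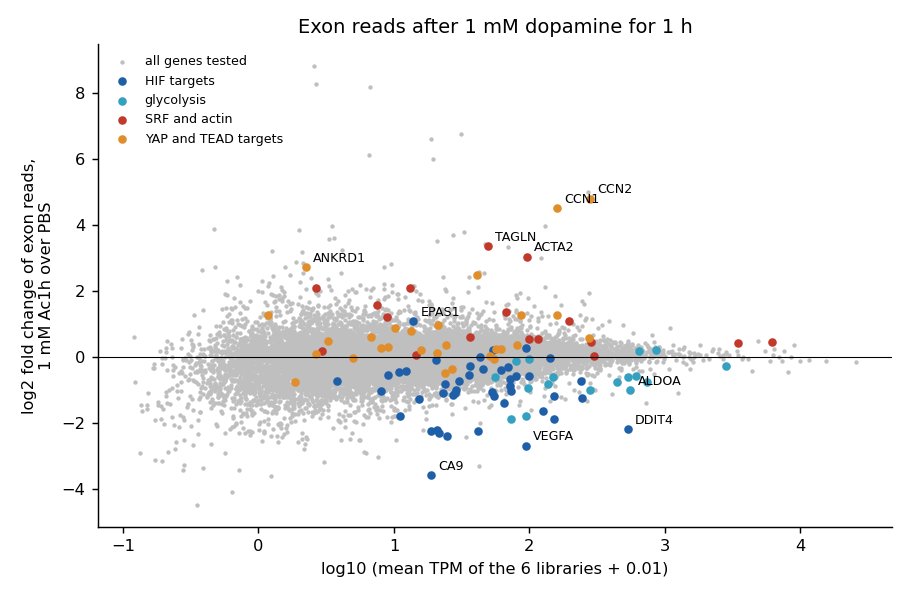
Each point is 1 gene tested in exon reads, with the log10 of its mean TPM over the 6 libraries (plus 0.01) on the horizontal axis and the log2 fold change at Acute 1 h over PBS on the vertical axis, and colours mark the lists named in the legend. HIF targets and glycolysis genes lie mostly below 0, with VEGFA, DDIT4 and CA9 among the lowest, whereas SRF and actin genes and YAP and TEAD targets lie mostly above 0, led by CCN2 and CCN1.

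Of the 32 pathway lists, the HIF targets had the most members that fell. Of 45 HIF genes tested, 38 were lower and 3 higher in exon reads, against 22.6% and 22.8% of all genes, with a median log2(fold change) of -0.98 beside a median near 0 over all genes tested. In total gene reads 32 were lower and 6 higher, and 22 of the 45 were exon DEGs that fell. Without any 1 of the 6 libraries, 36 to 39 were lower in exon reads. All 14 secreted or transport proteins of the list and 15 of its 16 autophagy and signalling genes were lower.

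VEGFA (chromosome 6, 43770184 to 43786487), the growth factor that drives vessel growth, had a TPM of 198, 178 and 114 in PBS and 34.7, 20.02 and 18.9 at Acute 1 h. The groups did not overlap, and the log2(fold change) was -2.69 (SE 0.22, adjusted p = 4e-06). CA9, a carbonic anhydrase of the cell surface and a standard marker of hypoxia, had a TPM of 29.98, 53.8 and 20.6 in PBS and 3.63, 2.44 and 2.28 at Acute 1 h, a log2(fold change) of -3.58 (adjusted p = 1.77e-05, SE 0.37). ADM, the vasodilator peptide adrenomedullin, stood at 70.8, 38.6 and 15.98 in PBS and 8.95, 6.36 and 7.52 at Acute 1 h and fell by 2.39 on the log2 scale. STC2, a secreted glycoprotein, stood at 86.1, 77.6 and 43.8 in PBS and 21.5, 9.90 and 10.3 at Acute 1 h, again without overlap.

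DDIT4 (chromosome 10, 72273924 to 72276036), which restrains mTOR complex 1, was the HIF target with the largest fall in level. Its TPM was 1312, 792 and 537 in PBS and 217, 172 and 174 at Acute 1 h, a log2(fold change) of -2.18 (adjusted p = 2.78e-05, SE 0.24). BNIP3 (chromosome 10, 131966455 to 131982013), a mitophagy receptor of the outer mitochondrial membrane, stood at 289, 245 and 187 in PBS and 92.7, 51.7 and 44.8 at Acute 1 h, a log2(fold change) of -1.88 (adjusted p = 4.12e-05, SE 0.22). Both genes were highest in PBS replicate 1 and lowest in PBS replicate 3, and the lowest PBS library still lay above every Acute 1 h library. PDK1, the kinase that closes pyruvate dehydrogenase, had a TPM of 42.9, 34.3 and 25.1 in PBS and 10.2, 6.37 and 4.77 at Acute 1 h. SLC2A1, the glucose transporter GLUT1, stood at 284, 201 and 97.3 in PBS and 85.9, 45.9 and 47.5 at Acute 1 h, and WSB1, a ubiquitin ligase adaptor, at 364, 386 and 284 in PBS and 160.4, 136 and 133 at Acute 1 h. P4HA1, a prolyl hydroxylase of collagen, had 271, 228 and 134 in PBS and 107, 77.3 and 87.95 at Acute 1 h. None of these 4 genes overlapped between the groups, and their log2(fold change) values ran from -2.21 for PDK1 to -1.17 for P4HA1.

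The oxygen-sensing members did not move as 1 block. HIF1A itself had a TPM of 145, 139.8 and 154 in PBS and 128, 134 and 151 at Acute 1 h and did not pass the test (-0.040, SE 0.071, adjusted p = 0.673). EPAS1, which encodes HIF-2alpha, rose from 9.76, 12.1 and 5.34 to 18.5, 17.5 and 20.1, a log2(fold change) of 1.09 (adjusted p = 0.000842, SE 0.20). HIF1A was higher in total gene reads, at 0.26 (SE 0.073, adjusted p = 0.0118). VHL, the ubiquitin ligase subunit that binds hydroxylated HIF, was higher by 0.27 (adjusted p = 0.00279). EGLN1, a prolyl hydroxylase that is itself a HIF target, was lower at -0.56, and EGLN2, which HIF does not induce, stood at 0.0086 (adjusted p = 0.916).

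Intron reads, which come largely from unspliced transcripts, moved the same way for the HIF list. Of 43 members tested in intron reads, 29 were lower and 3 higher, against 29.2% and 24.9% of all genes tested there, with a median of -0.77 beside -0.04. The intron log2(fold change) was -1.85 for VEGFA, -2.03 for BNIP3, -2.00 for PDK1 and 2.82 for EPAS1, each past the test. HIF1A, which did not pass in exon reads, had 0.26 in intron reads (adjusted p = 0.105).

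**Figure D2:**
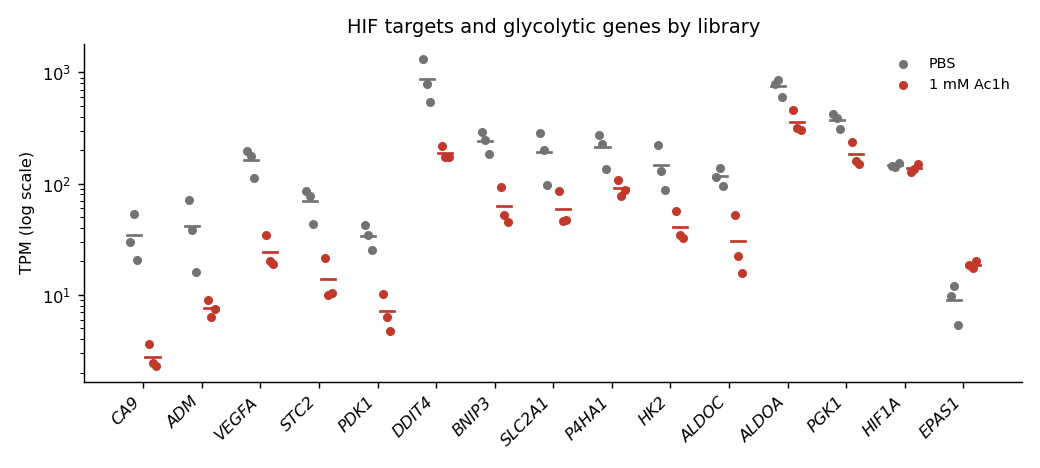
TPM on a log axis for HIF targets and glycolytic genes, with 1 point per library (3 PBS and 3 Acute 1 h libraries per gene) and a bar at each group mean. CA9, ADM, VEGFA, DDIT4 and BNIP3 are lower in every Acute 1 h library than in any PBS library, HIF1A overlaps and EPAS1 is higher in every Acute 1 h library.

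Glycolytic enzymes fell with the HIF list. Of 17 enzyme genes tested, 13 were lower and 1 higher in exon reads, with a median log2(fold change) of -0.62, and 3 of the 13 were DEGs. ALDOA, the aldolase of muscle and most dividing cells, had a TPM of 795, 854 and 599 in PBS and 459.5, 316 and 306 at Acute 1 h, a log2(fold change) of -1.01 (adjusted p = 0.000188, SE 0.15). PGK1, phosphoglycerate kinase, had 424, 393 and 308 in PBS and 237, 161 and 151 at Acute 1 h, a log2(fold change) of -0.99 (adjusted p = 0.000229, SE 0.15). HK2, the inducible hexokinase, stood at 221, 131 and 88.5 in PBS and 56.5, 34.3 and 32.8 at Acute 1 h and ALDOC, the aldolase of brain, at 115, 139 and 95.7 in PBS and 52.4, 22.5 and 15.9 at Acute 1 h. The groups overlapped for none of these 4 genes. The log2(fold change) was -0.76 for ENO1, an enolase, -0.62 for LDHA, a lactate dehydrogenase, and -0.27 for GAPDH, each past the test in exon reads. GAPDH had 0.078 in total gene reads and did not pass there (SE 0.072, adjusted p = 0.362). LDHB, the heart-type lactate dehydrogenase, was the member that rose, by 0.22 (SE 0.053, adjusted p = 0.00511). In total gene reads 11 were lower and 4 higher, and without Acute 1 h replicate 2 that count of lower genes was 7.

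Some promoters of the HIF targets show the letters by which HIF binds DNA. The core of the hypoxia response element (ACGTG or, read on the other strand, CACGT, also part of the E-box CACGTG) occurred in 18 of 38 tested HIF targets with a promoter in the RefSeq table (47.4%), against 25.7% of the 12018 tested genes and 21.6% of all 27305 promoters, each 300 bases from 250 before the transcription start to 50 after it. Over all exon DEGs with a promoter, the core occurred in 21.9% of the 279 that were lower and in 19.9% of the 297 that were higher. Both shares lay below that of the tested genes. A match is only a description of the sequence. The 3 HIF target DEGs with the core and the highest TPM are printed below from RefSeq (GRCh38.p14), 5′ to 3′ on the gene's strand with the core in capitals. They were chosen after their values were seen, to show where the core lies in genes whose levels fell, at DDIT4 (chr10:72273674-72273973, plus strand), WSB1 (chr17:27293864-27294163, plus strand) and BNIP3 (chr10:131981874-131982173, minus strand).
DDIT4: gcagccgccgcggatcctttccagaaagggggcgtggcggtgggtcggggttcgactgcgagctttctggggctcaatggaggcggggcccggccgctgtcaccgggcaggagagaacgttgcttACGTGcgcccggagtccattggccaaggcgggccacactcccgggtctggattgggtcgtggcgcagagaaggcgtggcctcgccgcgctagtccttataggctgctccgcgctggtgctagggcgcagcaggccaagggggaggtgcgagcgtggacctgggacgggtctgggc
WSB1: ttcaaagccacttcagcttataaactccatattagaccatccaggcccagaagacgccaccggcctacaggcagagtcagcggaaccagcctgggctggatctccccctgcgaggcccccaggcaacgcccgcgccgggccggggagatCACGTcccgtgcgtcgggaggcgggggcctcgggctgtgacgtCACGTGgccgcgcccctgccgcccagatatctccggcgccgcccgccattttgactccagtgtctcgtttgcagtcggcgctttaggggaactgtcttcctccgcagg
BNIP3: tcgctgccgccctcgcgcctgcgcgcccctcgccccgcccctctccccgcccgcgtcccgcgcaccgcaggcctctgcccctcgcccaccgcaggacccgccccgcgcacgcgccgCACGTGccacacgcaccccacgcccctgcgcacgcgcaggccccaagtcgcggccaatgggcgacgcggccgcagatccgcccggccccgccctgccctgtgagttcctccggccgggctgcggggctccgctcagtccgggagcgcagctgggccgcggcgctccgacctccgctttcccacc

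Genes of the actin cytoskeleton and targets of YAP and TEAD rose far more often than they fell. Of 17 SRF and actin genes tested, 14 were higher in exon reads and the other 3 did not pass, and 8 were DEGs, with a median log2(fold change) of 0.60. By total gene reads 15 were higher. In intron reads 13 of 16 were higher, against 24.9% of all genes tested there, with a median near 1.5 beside -0.04. ACTA2 (chromosome 10, 88935074 to 88991339), smooth muscle actin, had a TPM of 21.2, 24.1 and 18.6 in PBS and 204, 147 and 157 at Acute 1 h, a log2(fold change) of 3.04 (adjusted p = 1.23e-08, SE 0.12). TAGLN (chromosome 11, 117199370 to 117207464), transgelin, which binds actin filaments, stood at 9.85, 10.7 and 6.70 in PBS and 119, 71.1 and 78.6 at Acute 1 h, a log2(fold change) of 3.35 (adjusted p = 2.15e-07, SE 0.19). MYL9, the regulatory light chain of non-muscle and smooth muscle myosin, had 6.19, 6.32 and 3.02 in PBS and 27.8, 17.4 and 18.4 at Acute 1 h. For all 3 genes the lowest Acute 1 h library lay far above the highest PBS library.

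Abundant cytoskeletal genes rose less. ACTB, cytoplasmic beta-actin, had a TPM of 3009.5, 2830.4 and 3244 in PBS and 4145, 3879 and 3797 at Acute 1 h, a log2(fold change) of 0.42 (adjusted p = 0.000213, SE 0.062). VCL, which links actin to cell adhesions, was higher by 0.60, TPM1, a tropomyosin, by 1.38 and FHL2, a cofactor of SRF, by 1.58, each without overlap between the groups. ACTA1, skeletal muscle actin, and ACTG2, actin of the gut wall, were also DEGs, though at low levels of 7.40 ± 1.68 and 2.69 ± 0.938 at Acute 1 h. Reads of actin paralogs that match each other closely can be shared between these genes, and the counting was not stated to prevent it. The same holds for genes that share bases with another annotated gene, as ACTA2 does with STAMBPL1 and FAS, TAGLN with PCSK7 and CA9 with ARHGEF39, because the strand used in counting was not stated.

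YAP and TEAD targets were led by the matricellular genes CCN1 and CCN2. Of 28 list members tested, 16 were higher and 3 lower, 7 of them DEGs that rose, with a median log2(fold change) of 0.36. CCN2 (chromosome 6, 131948176 to 131951372), also known as CTGF, had a TPM of 15.9, 25.98 and 18.7 in PBS and 616, 483 and 535 at Acute 1 h, a log2(fold change) of 4.79 (adjusted p = 6.97e-10, SE 0.14). CCN1 (chromosome 1, 85580761 to 85583950), also called CYR61 and counted here among the immediate early genes as well, stood at 18.3, 16.01 and 7.55 in PBS and 354, 253 and 307 at Acute 1 h, a log2(fold change) of 4.50 (adjusted p = 2.58e-08, SE 0.20). ANKRD1, a nuclear ankyrin repeat protein, had 0.399, 0.859 and 0.504 in PBS and 5.25, 3.36 and 2.99 at Acute 1 h, and the kinase gene NUAK2 had 12.1, 13.8 and 12.4 in PBS and 79.2, 64.00 and 65.5 at Acute 1 h. Neither gene overlapped between the groups. The 3 members that fell were LATS1 (-0.35) and LATS2 (-0.48), the kinases that hold YAP in the cytoplasm (adjusted p = 0.000854 and 0.000747), and DOCK5 (-0.76, adjusted p = 0.0161), an exchange factor for Rac. The DOCK5 and LATS1 changes did not pass in some alternatives, DOCK5 when 1 library was left out and LATS1 in total gene reads (-0.028, adjusted p = 0.695). YAP1 itself was higher by 0.35 and its paralog WWTR1, which encodes TAZ, by 0.79.

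**Figure D3:**
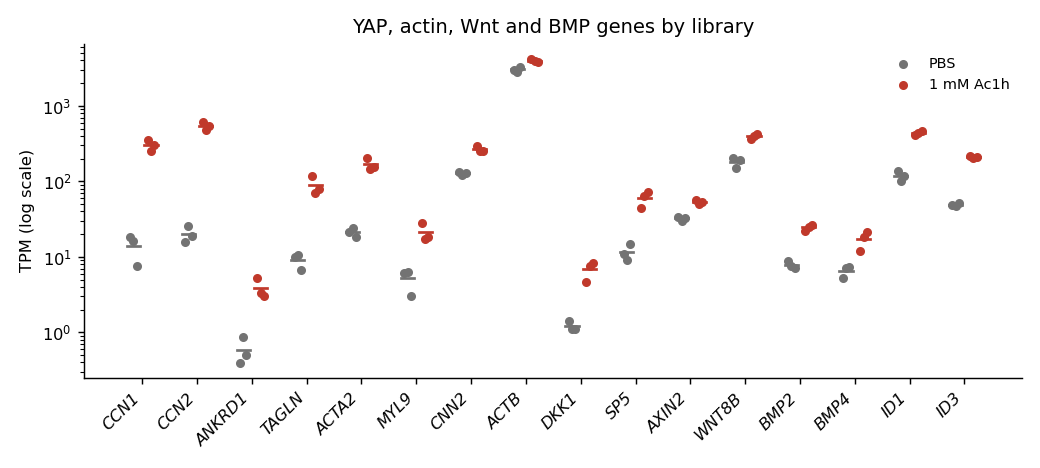
TPM on a log axis for YAP and TEAD targets, actin genes and Wnt and BMP genes, with 1 point per library and a bar at each group mean. The 3 Acute 1 h libraries lie above the 3 PBS libraries for each gene shown, by the widest margin for CCN1 and CCN2 and by the narrowest for ACTB.

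SRF binds the CArG box, searched here as the CArG box consensus on both strands. It occurred in 6 of 14 tested SRF and actin genes with a promoter (42.9%), in 3.70% of the 297 exon DEGs that were higher, in 0.717% of the 279 that were lower and in 1.08% of the tested genes. The promoters of the 3 genes with the box and the largest rise are printed below with the box in capitals, also chosen after their values were seen. They lie at FHL2 (chr2:105438464-105438763, minus strand), FILIP1L (chr3:99876124-99876423, minus strand) and CNN2 (chr19:1026358-1026657, plus strand), whose log2(fold change) values were 1.58, 1.21 and 1.10.
FHL2: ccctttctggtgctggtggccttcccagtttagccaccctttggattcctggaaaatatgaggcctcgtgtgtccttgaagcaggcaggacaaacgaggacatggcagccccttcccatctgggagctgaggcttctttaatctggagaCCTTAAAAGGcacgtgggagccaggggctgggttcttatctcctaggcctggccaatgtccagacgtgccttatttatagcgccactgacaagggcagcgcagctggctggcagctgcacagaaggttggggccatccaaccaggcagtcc
FILIP1L: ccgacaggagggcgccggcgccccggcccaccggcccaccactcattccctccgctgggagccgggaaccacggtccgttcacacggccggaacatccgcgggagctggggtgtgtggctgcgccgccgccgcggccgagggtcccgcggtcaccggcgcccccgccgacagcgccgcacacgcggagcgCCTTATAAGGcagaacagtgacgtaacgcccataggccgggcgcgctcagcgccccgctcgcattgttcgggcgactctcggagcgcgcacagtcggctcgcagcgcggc
CNN2: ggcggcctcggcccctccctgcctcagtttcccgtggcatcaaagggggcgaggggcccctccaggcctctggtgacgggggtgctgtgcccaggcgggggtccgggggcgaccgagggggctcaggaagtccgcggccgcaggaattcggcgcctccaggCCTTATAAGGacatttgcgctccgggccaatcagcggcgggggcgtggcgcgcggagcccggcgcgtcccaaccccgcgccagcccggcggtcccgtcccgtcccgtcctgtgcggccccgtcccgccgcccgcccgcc

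In the Wnt pathway more members rose than fell at each level. Of 57 genes tested, 34 were higher and 6 lower, with 10 DEGs, all of which rose, and a median log2(fold change) of 0.38. Among the ligands 7 of 11 were higher and the others did not pass, among the Frizzled and other receptors 9 of 15 were higher and 2 lower, and among the inhibitors 9 of 15 were higher and 2 lower. WNT8B, a ligand of the embryonic forebrain midline, had a TPM of 204, 151 and 191 in PBS and 362, 399.5 and 422 at Acute 1 h, a log2(fold change) of 1.16 (adjusted p = 4.57e-06, SE 0.10). FZD10, a Frizzled receptor, was higher by 1.86 (TPM 0.620 ± 0.232 in PBS and 2.19 ± 0.210 at Acute 1 h). DKK1, a secreted inhibitor that beta-catenin induces, had 1.42, 1.09 and 1.12 in PBS and 4.68, 7.61 and 8.38 at Acute 1 h, a log2(fold change) of 2.53 (adjusted p = 6.13e-05, SE 0.31). The groups did not overlap for DKK1, and every Acute 1 h library exceeded the PBS mean more than 3 times.

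Direct targets of beta-catenin also rose. SP5, a zinc finger factor, had a TPM of 10.9, 9.02 and 14.8 in PBS and 44.8, 64.5 and 72.04 at Acute 1 h, a log2(fold change) of 2.42 (adjusted p = 3.45e-06, SE 0.20). AXIN2, the scaffold by which the pathway limits itself, had 33.8, 30.3 and 32.7 in PBS and 56.2, 49.9 and 53.5 at Acute 1 h, and RNF43, a ligase that removes Frizzled receptors, rose by 1.12. LEF1 rose by 0.25, and CCND1, which encodes cyclin D1, rose by 1.08 from 54.4, 61.1 and 52.5 to 119, 105 and 120.1. WIF1, a secreted inhibitor, fell by 0.90 on the log2 scale. The other 5 members that were lower in exon reads, SFRP1, LRP5, LRP6, DVL1 and AXIN1, did not pass as lower in total gene reads, where DVL1 and LRP6 had values just above 0, 0.050 (adjusted p = 0.523) and 0.019 (adjusted p = 0.76). In a fit that held all 15 libraries of the 1 mM experiment, 19 Wnt genes were higher in exon reads, and 33 when the first library of Acute 24 h was left out of that fit.

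In the TGF-beta and BMP list, 26 of 55 genes tested were higher and 4 lower, with 12 DEGs, all of which rose. Ligands made up 11 of the 26, and the other 7 of the 18 ligands tested did not pass. BMP2 had a TPM of 8.69, 7.54 and 7.11 in PBS and 22.3, 24.7 and 26.5 at Acute 1 h, a log2(fold change) of 1.70 (adjusted p = 8.91e-07, SE 0.12), and BMP4 rose by 1.43 from 5.19, 7.14 and 7.25 to 11.9, 18.3 and 21.1. ID1 and ID3, the classical BMP targets, encode proteins that block basic helix-loop-helix factors. ID1 had 135, 99.9 and 117 in PBS and 407, 435 and 459 at Acute 1 h, a log2(fold change) of 1.93 (adjusted p = 5.52e-08, SE 0.094), and ID3 had 48.2, 47.3 and 52.3 in PBS and 216, 202 and 209.5 at Acute 1 h, a log2(fold change) of 2.13 (adjusted p = 1.79e-09, SE 0.069). SMAD6 and SMAD7, which inhibit the pathway, rose by 1.04 and 0.62, as did BAMBI, a decoy receptor, by 1.59. Of the 10 receptors, 2 were higher and 2 lower. The fit of all 15 libraries gave 13 higher genes in exon reads and 23 in total gene reads, where this comparison alone gave 37.

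**Figure D4:**
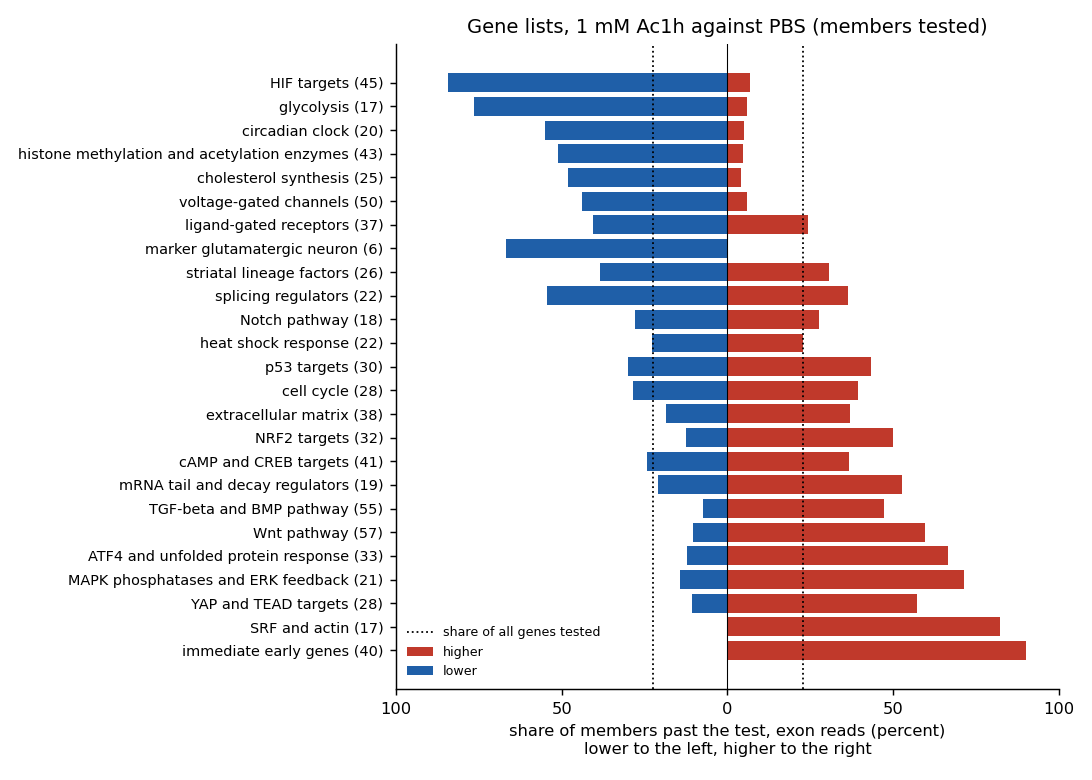
For each gene list, bars give the share of tested members past the test in exon reads, lower to the left and higher to the right, with the number tested in brackets and dotted lines at the shares of all genes tested (22.6% lower and 22.8% higher). HIF targets and glycolysis extend furthest to the left, and immediate early genes and SRF and actin genes furthest to the right.

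Of 40 immediate early genes tested, 36 were higher, 26 of them DEGs. FOSB and EGR2 had log2(fold change) values of 6.75 and 6.60, and the members that did not pass were JUND, NR4A2, HOMER1 and IER5L. NPAS4, the early gene most closely tied to neuronal calcium entry, had a TPM of 0.845, 0.638 and 4.87 in PBS and 6.14, 6.25 and 5.02 at Acute 1 h, a log2(fold change) of 1.49 (adjusted p = 0.0327, SE 0.51) that was not past the test without most single libraries. The list of cAMP and CREB genes was mixed, with 15 of 41 higher and 10 lower in exon reads. In total gene reads 20 of 43 were higher and 9 lower. Most members are regulators of cAMP and CREB, of which 9 of 29 tested were higher and 9 lower in exon reads. Among its secreted targets 6 of 12 were higher and 1 lower in exon reads. In total gene reads 9 of 13 secreted targets were higher and the others did not pass. SIK1, a kinase that restrains CREB coactivators, rose from 7.08, 6.25 and 6.70 to 27.02, 26.2 and 19.97, and ADCYAP1, which encodes the neuropeptide PACAP, from 3.33, 4.83 and 3.47 to 13.3, 13.01 and 13.4. BDNF had a TPM of 3.05 ± 0.738 in PBS and 2.16 ± 0.292 at Acute 1 h and did not pass (adjusted p = 0.0909).

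The cAMP response element TGACGTCA occurred in 3.70% of the promoters of exon DEGs that were higher, 1.43% of those that were lower and 3.19% of tested genes. It is shown here because D1-like receptors act through cAMP. Below are 60 bases around the element for DEGs by both kinds of read that are no immediate early genes, namely the 6 with the largest rise of 9 such genes and the only 1 that fell, with the element in capitals. These counts leave out the genes of 1 chromosome, which the rule for printing excluded. FSTL4 and LMCD1 rose, by 1.36 and 1.28, as did DDX28 by 1.49, FRAT1, a Wnt effector, by 1.24, and the histone genes H4C8 and H4C5 by 2.13 and 1.57. H4C5 did not pass without Acute 1 h replicate 1 (adjusted p = 0.0537). NEUROD6, shown last, fell by 1.39 on the log2 scale with the same element in its promoter. They are taken from RefSeq (GRCh38.p14) at chr5:133612536-133612595, minus strand for FSTL4, chr3:8501614-8501673, plus strand for LMCD1, chr16:68023209-68023268, minus strand for DDX28, chr10:97319200-97319259, plus strand for FRAT1, chr6:26285632-26285691, minus strand for H4C8, chr6:26204453-26204512, plus strand for H4C5 and chr7:31340747-31340806, minus strand for NEUROD6.
FSTL4: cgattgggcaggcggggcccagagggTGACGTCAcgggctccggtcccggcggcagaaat
LMCD1: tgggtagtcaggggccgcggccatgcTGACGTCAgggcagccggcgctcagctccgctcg
DDX28: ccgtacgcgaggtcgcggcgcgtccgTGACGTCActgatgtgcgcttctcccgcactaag
FRAT1: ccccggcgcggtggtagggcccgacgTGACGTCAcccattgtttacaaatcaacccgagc
H4C8: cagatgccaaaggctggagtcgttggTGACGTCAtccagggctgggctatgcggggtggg
H4C5: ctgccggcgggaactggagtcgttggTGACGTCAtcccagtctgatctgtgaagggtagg
NEUROD6: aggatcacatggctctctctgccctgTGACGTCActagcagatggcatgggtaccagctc

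Feedback regulators of kinase signalling mostly rose. Of 21 dual-specificity phosphatases, sproutys and related genes, 15 were higher and 3 lower, 4 of them DEGs that rose. DUSP1 and DUSP10, nuclear phosphatases of MAP kinases, rose by 1.55 and 1.63, and ERRFI1, which inhibits the EGF receptor, by 1.37. DUSP7 (-0.48), DUSP8 (-0.24) and SPRED1 (-0.30) were lower in exon reads, and in total gene reads none of the 3 passed, with -0.11, 0.15 and 0.021.

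Single cytokine and interferon genes had large changes. SOCS3, the feedback inhibitor of cytokine receptors that STAT3 induces, had a TPM of 9.44, 8.62 and 6.48 in PBS and 73.1, 85.2 and 97.3 at Acute 1 h, a log2(fold change) of 3.42 (adjusted p = 1.14e-08, SE 0.14). CCL2, the monocyte chemokine, stood at 9.38, 10.6 and 21.5 in PBS and 59.2, 85.8 and 92.9 at Acute 1 h, a log2(fold change) of 2.55 (adjusted p = 1.63e-05, SE 0.26), and IRF1, the interferon regulatory factor, at 1.39, 0.937 and 0.994 in PBS and 4.76, 3.92 and 3.99 at Acute 1 h. GBP1, an interferon-induced GTPase, was at 0.325, 0.899 and 0.0513 in PBS and 8.71, 4.72 and 6.15 at Acute 1 h. The groups overlapped for none of these 4 genes. The NF-kB list, which also holds inhibitors and subunits, did not move as a whole, with 4 of 21 higher and 3 lower in exon reads. The 4 that rose were DEGs (2.59% of all genes), as was 1 of those that fell (3.41% of all genes). Of 7 cytokines and other targets tested, 3 were DEGs that rose and the others did not pass. NFKBIA, the standard early target of NF-kB, stood at 0.13 (SE 0.086, adjusted p = 0.251). TNIP1, an inhibitor of NF-kB, fell from 87.7, 66.5 and 49.2 to 37.96, 25.7 and 23.9. The summed TPM of 4 microglial markers was 1.07 or less in every library, none of the 4 being at 0 in all of them.

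Among genes of NRF2, the factor that answers oxidants, 16 of 32 were higher and 4 lower in exon reads, each by less than the fold a DEG needs. HMOX1, haem oxygenase, rose by 0.75 (TPM 8.48, 5.71 and 5.86 in PBS and 11.8, 10.2 and 10.4 at Acute 1 h), and NQO1 by 0.69, while SLC7A11 stood at 0.14 (adjusted p = 0.325). In the iron and metal handling list 5 of 13 were higher and 2 lower, and 4 were DEGs that rose (2.59% of all genes), namely 3 metallothionein genes and SLC30A1. Of 4 metallothionein genes tested, which bind zinc and copper, 3 were higher and MT3 fell (-0.91). MT1X and MT2A had a TPM of 2.03, 3.75 and 4.81 in PBS and 21.2, 10.9 and 14.9 at Acute 1 h and of 14.1, 12.8 and 15.8 in PBS and 24.7, 30.4 and 28.99 at Acute 1 h, respectively. SLC30A1, the zinc exporter that zinc itself induces through MTF1, had 24.5, 28.7 and 24.8 in PBS and 82.3, 76.96 and 78.3 at Acute 1 h, a log2(fold change) of 1.65 (adjusted p = 1.31e-08, SE 0.068). TFRC, the transferrin receptor whose RNA is stabilised when iron is short, stood at -0.062 (SE 0.065, adjusted p = 0.465).

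In the unfolded protein response list 22 of 33 were higher and 4 lower, by small amounts. ATF4 rose from 342, 379 and 387 to 486, 496 and 486, a log2(fold change) of 0.45 (adjusted p = 0.000108, SE 0.060), and ATF3 from 13.1, 15.3 and 10.2 to 158, 98.2 and 119. Of 22 heat shock genes 5 were higher and 5 lower in exon reads, whereas 15 were higher and 3 lower in total gene reads. HSPA1B, which heat and protein damage induce, did not pass in exon reads (-0.12, adjusted p = 0.33) and was higher in total gene reads (0.24, adjusted p = 0.0434). Of 30 p53 targets 13 were higher and 9 lower in exon reads, and in total gene reads 20 of 31 were higher and 6 lower. GADD45A and BTG2 were the DEGs among them, whereas CDKN1A, the cell cycle inhibitor p21, rose by 0.29.

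Of 19 genes that act on mRNA tails and decay, 10 were higher and 4 lower, and 4 were DEGs that rose. ZFP36, which brings mRNAs with AU-rich elements to decay, had a TPM of 5.47, 4.18 and 4.17 in PBS and 56.99, 63.6 and 64.5 at Acute 1 h, a log2(fold change) of 3.79 (adjusted p = 2.4e-09, SE 0.13). TENT5B, a poly(A) polymerase that extends mRNA tails, rose from 3.98, 3.88 and 2.51 to 40.8, 36.5 and 37.99, a log2(fold change) of 3.52 (adjusted p = 1.9e-08, SE 0.15). CLK1, the kinase that phosphorylates SR splicing factors, fell from 152, 157 and 154 to 48.1, 50.05 and 51.04, a log2(fold change) of -1.59 (adjusted p = 2.4e-09, SE 0.055). All 4 CLK kinases were lower in exon reads, while the SR protein genes divided into 8 higher and 8 lower of 18. Both together had 8 higher and 12 lower, beside 11 higher and 7 lower in total gene reads. SRSF3 rose by 1.03 and NKTR, a large SR-like protein, fell by 1.11. CLK1 did not pass in intron reads, where it had 0.23 (SE 0.16, adjusted p = 0.239). CLK1 and CLK4 are known for introns that are retained in nuclear RNA.

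Neuronal markers fell more often than they rose in exon reads but not in total gene reads. Of 10 general neuronal markers 6 were lower in exon reads and the other 4 did not pass, whereas 3 were higher and 2 lower in total gene reads and, of 9 tested in intron reads, 4 were higher and 1 lower. Their summed TPM overlapped between PBS (4871 to 5621) and Acute 1 h (4559 to 5034). The 6 glutamatergic markers summed to 1715 to 1900 in PBS and 734 to 915 at Acute 1 h, 4 of them lower in exon reads and the other 2 not past the test. By total gene reads 2 of the 6 were higher and 3 lower, and by intron reads 3 were higher and 1 lower. NEUROD6, a basic helix-loop-helix factor of cortical projection neurons, had a TPM of 1033, 1058 and 1086 in PBS and 404, 439 and 333 at Acute 1 h, a log2(fold change) of -1.39 (adjusted p = 2.79e-07, SE 0.083). SLC17A7 had 70.5, 77.5 and 78.5 in PBS and 32.3, 25.9 and 18.4 at Acute 1 h, a log2(fold change) of -1.52 (adjusted p = 7.66e-06, SE 0.14), and NEUROD2 fell by 0.99. In bulk RNA, fewer cells of a type and less RNA per cell cannot be told apart. In intron reads NEUROD6 had 0.13 (SE 0.14, adjusted p = 0.468), from 225, 242 and 259 reads in PBS and 135, 107 and 108 at Acute 1 h.

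Receptor and channel genes were also lower more often than higher. Of 37 ligand-gated receptor genes 15 were lower and 9 higher, and of 50 voltage-gated channel genes 22 were lower and 3 higher, beside 21 and 6 and then 25 and 8 in total gene reads. Long genes were lower more often in total gene reads, at 48.2% of those between 100 and 300 kb. The part of gene length in these counts was not tested. GRIA2, the AMPA receptor subunit that limits calcium entry, had a TPM of 126, 126 and 120.2 in PBS and 44.9, 50.6 and 47.6 at Acute 1 h, a log2(fold change) of -1.33 (adjusted p = 2.52e-08, SE 0.059). GRIN1, the obligatory NMDA receptor subunit, fell by 1.22, GABRA4, a GABA receptor subunit, by 1.69 and KCNQ5, an M-current channel, by 1.46. KCNJ2, an inward rectifier, was the channel gene that rose most, from 3.83, 3.23 and 2.91 to 8.60, 7.74 and 9.40. NRN1, which encodes the activity-regulated protein neuritin, fell from 424, 382 and 352 to 153, 155 and 141, a log2(fold change) of -1.32 (adjusted p = 1.01e-07, SE 0.069).

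The striatal lists did not move as a whole. Of 26 lineage transcription factors 8 were higher and 10 lower in exon reads, and of 26 striatal receptor and signalling genes 4 were higher and 8 lower. The counts in total gene reads were 11 higher and 9 lower of 29, and 8 higher and 8 lower of 26. ZNF503, the human counterpart of the mouse striatal factor Nolz1, rose from 45.4, 39.3 and 35.9 to 99.4, 98.4 and 108, a log2(fold change) of 1.39 (adjusted p = 2.21e-07, SE 0.081). DRD1 stood at 0.19 (adjusted p = 0.721) and DRD2 at 0.22 (adjusted p = 0.435). CHRM4, a muscarinic receptor of medium spiny neurons, rose by 1.89, from a mean TPM of 1.89. PPP1R1B fell from 24.5, 21.7 and 20.3 to 14.8, 13.96 and 12.8.

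Progenitor and glial genes changed singly. HES5, the Notch target of radial glia, fell from 86.2, 85.2 and 76.7 to 42.7, 42.4 and 34.1, a log2(fold change) of -1.01 (adjusted p = 1.53e-05, SE 0.10), and DLL1, a Notch ligand, rose from 64.2, 62.9 and 55.4 to 119, 106 and 107. HES1 had 0.034 (adjusted p = 0.738). Of 18 Notch genes 5 were higher and 5 lower in exon reads, and of 19 tested in total gene reads 10 were higher and 3 lower. NES, the intermediate filament of progenitors, rose from 256, 219.9 and 244 to 494, 420.2 and 443, and GJA1, connexin 43 of astrocytes and radial glia, from 145, 138 and 136 to 304, 326 and 357. SOX2, a factor of neural progenitors, stood at -0.095 (SE 0.057, adjusted p = 0.198) in exon reads and at 0.26 (adjusted p = 0.00306) in total gene reads. The 6 astrocyte markers summed to 288 to 317 in PBS and 539 to 574 at Acute 1 h, while GFAP fell by 0.76. The 8 radial glia markers overlapped, at 2976 to 3332 and 2991 to 3290.

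In exon reads the cholesterol, clock and chromatin lists had more members lower than higher, which held for the clock list alone in total gene reads. Of 25 cholesterol synthesis genes 12 were lower and 1 higher in exon reads, beside 7 lower and 7 higher in total gene reads. MSMO1, which removes the C4 methyl groups of sterols and was the only DEG of that list, had a TPM of 540.2, 582 and 568 in PBS and 254, 249.6 and 244 at Acute 1 h, a log2(fold change) of -1.13 (adjusted p = 4.48e-08, SE 0.054). INSIG1, the sensor that holds SREBP in the endoplasmic reticulum, fell by 0.78. Of 20 clock genes 11 were lower in exon reads. In total gene reads 7 were lower, close to the 33.6% of all genes tested there, and 2 were higher (30.9% of all genes). In exon reads HLF (-1.09), RORB (-0.98) and NR1D1 (-0.97) fell the most, and PER1 alone was higher (0.36). Among 43 enzymes that write or erase marks on histones and DNA, 22 were lower and 2 higher in exon reads, whereas 13 were lower and 15 higher in total gene reads. TET1, which oxidises methylated cytosine, fell by 1.09, and KDM3A, a histone demethylase that HIF induces, by 1.04.

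Of 38 matrix genes 14 were higher and 7 lower in exon reads, and of 41 tested in total gene reads 23 were higher and 4 lower. ADAMTS1, a secreted protease, rose from 35.8, 39.7 and 27.96 to 121, 116 and 135, TIMP3, the inhibitor of such proteases, from 71.5, 76.3 and 68.5 to 165, 148 and 161, and THBS1, thrombospondin, from 17.4, 19.1 and 25.98 to 62.6, 42.3 and 47.5. MMP3 and MMP1, collagen and matrix proteases that sit side by side on chromosome 11, fell from 18.04, 42.7 and 172 to 5.20, 11.7 and 6.54 and from 3.21, 5.05 and 24.6 to 0.772, 1.99 and 1.57. Both were far higher in PBS replicate 3 than in the other PBS libraries, and without that library the log2(fold change) was -1.93 (adjusted p = 0.000381) for MMP3 and -1.48 (adjusted p = 0.0104) for MMP1. In the cell cycle list 11 of 28 were higher and 8 lower in exon reads, beside 19 higher and 2 lower in total gene reads. MCM2, PCNA and CDC6, which act in DNA replication, were higher by 0.47, 0.53 and 0.63, while the mitotic kinase genes AURKA and PLK1 had -0.81 and -0.45. MKI67 had -0.054 (SE 0.059, adjusted p = 0.481) in exon reads and 0.29 (adjusted p = 0.00532) in total gene reads.

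Outside all lists, the DEGs by both kinds of read with the largest change were mostly genes of low level. PTGER4, a prostaglandin E2 receptor coupled to cAMP, had a TPM of 0.0743, 0.274 and 0.422 in PBS and 4.29, 3.49 and 3.42 at Acute 1 h, a log2(fold change) of 3.84 (adjusted p = 1.64e-05, SE 0.39). The homeobox genes DLX3 and SIX2 had 0.532 ± 0.308 in PBS and 3.74 ± 0.491 at Acute 1 h and 0.462 ± 0.220 in PBS and 3.32 ± 0.239 at Acute 1 h, respectively. Among genes that fell were KRT31, a hair keratin (5.47 ± 0.923 in PBS and 0.567 ± 0.171 at Acute 1 h), NIM1K, a kinase of the AMPK family (9.56 ± 1.49 in PBS and 1.60 ± 0.384 at Acute 1 h), GDA, guanine deaminase (3.34 ± 0.952 in PBS and 0.538 ± 0.0377 at Acute 1 h), and KISS1R, the kisspeptin receptor (13.2, 8.58 and 2.54 in PBS and 2.13, 0.542 and 1.35 at Acute 1 h). KISS1R ranged widely within the PBS group, though its lowest PBS library stood above the highest Acute 1 h library. The largest changes in level included ARRDC3, an arrestin domain protein, which rose from 149.7, 116 and 90.6 to 363, 364 and 382, and MCL1, a survival factor of the BCL2 family, which rose from 280.2, 251 and 234 to 534, 500.0 and 540.2.

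The kind of read changed which genes were called, and it did so by gene length. In total gene reads the median log2(fold change) was 0.35 among genes under 10 kb, 0.05 between 10 and 30 kb, -0.14 between 30 and 100 kb, -0.23 between 100 and 300 kb and -0.56 over 300 kb. The medians in exon reads moved far less, from 0.09 in the shortest class to -0.05 in the longest. In total gene reads 45.3% of the genes under 10 kb were higher and 10.8% lower. Short genes that were higher only in total gene reads are to be read beside these shares. In intron reads they ran from 0.66 to -0.60, where 46.2% of the shortest genes tested were higher and 4.51% lower, while 9.34% of the longest were higher and 61.7% lower. The spread of these medians between libraries of a group was 0.09 (SD) for the shortest and 0.19 for the longest class in intron reads. Intron reads were scaled to each other here, which removes the fall in their share. Scaled as exon reads, the median over all genes was -1.05, and only the genes under 10 kb stood above it by over 0.5, at -0.34. The 249 zinc finger genes of chromosome 19 tested in intron reads, known for distinctive chromatin, had a median of 0.23, and -0.77 when scaled as exon reads. Lower depth of intron reads at Acute 1 h moved with this pattern, and its part was not tested.

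**Figure D5:**
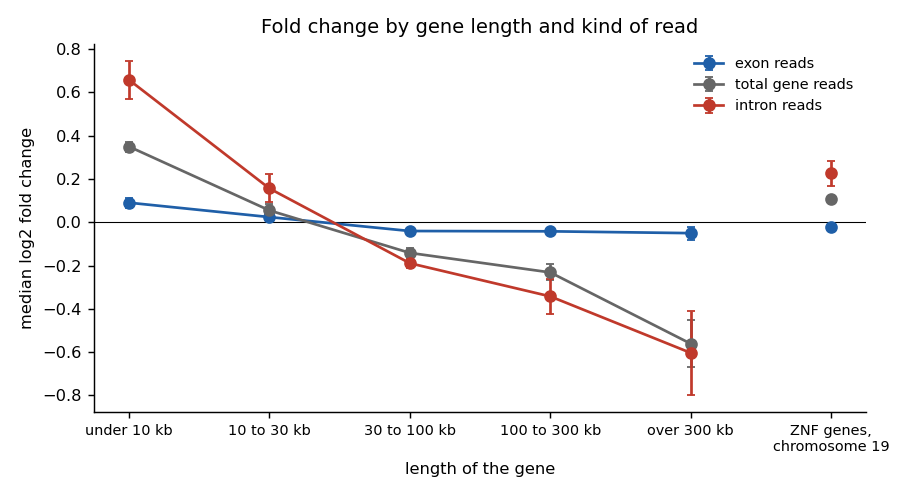
Median log2 fold change at Acute 1 h over PBS by gene length class and for zinc finger genes of chromosome 19, for exon, total gene and intron reads. Error bars give the SD between libraries of a group. Total gene and intron reads fall steadily with length while exon reads stay near 0.

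Intron reads were tested for 20851 genes, of which 11286 (54.1%) passed, 24.9% higher and 29.2% lower. Of the exon DEGs that were higher, 295 were tested in intron reads, where 205 were higher and 21 lower with a median of 1.41. Of those that were lower, 406 were tested, with 207 lower and 17 higher and a median of -0.65. Among genes whose higher group averaged 1 TPM or more, 848 passed the test in opposite directions. Of these, 290 were higher in exon and lower in intron reads and 558 the reverse. RPE65, the retinoid isomerase of the eye, rose in both, with 28, 37 and 31 intron reads in PBS and 577, 336 and 368 at Acute 1 h beside a TPM of 9.91, 11.5 and 6.70 in PBS and 40.5, 34.9 and 38.4 at Acute 1 h. OLFML3, a secreted glycoprotein, moved in opposite ways, with an exon log2(fold change) of 1.34 and an intron value of -1.97. HOPX fell in exon reads (-0.54) and rose in intron reads (1.16), as did DUSP8 (-0.24 and 1.30). Such genes can hold reads of overlapping transcripts, since the strand used in counting was not stated.

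The 1 µM experiment, which had its own 3 Acute 1 h and 3 PBS libraries, was set beside these values. Alone, it gave 52 genes past the test of 15352 (0.339%), 33 higher (0.215%) and 19 lower (0.124%). The difference of the log2(fold change) between doses passed the test for 159 of 16997 genes (0.935%), with 0.600% of all genes tested higher at 1 mM and 0.335% lower. Each dose had its own experiment and its own controls, so dose and experiment cannot be told apart here. Among the 1 mM exon DEGs that rose, 37 of 426 tested were such genes, and the 293 with a 1 µM value had a median there of 0.61. Among those that fell it was 14 of 563, with a median of -0.54 over 458 genes at 1 µM. Which of these shares follow from choosing the genes on the 1 mM values cannot be read from them.

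Between doses, 4 of the SRF and actin genes (ACTA2, TAGLN, TPM1 and MYH9) and 4 of the YAP and TEAD targets (CCN1, CCN2, GADD45A and MYOF) passed the test of the difference, each with the larger value at 1 mM, against 0.600% of all genes. At 1 µM the log2(fold change) was -0.94 (SE 0.65) for ACTA2 and 1.08 (SE 0.27) for CCN2, and the difference between doses was 4.02 (SE 0.47, adjusted p = 0.00187) and 3.74 (SE 0.28, adjusted p = 8.45e-05). TAGLN differed by 3.71 (adjusted p = 0.0173) and CCN1 by 3.40 (adjusted p = 0.00301). As a list, the SRF and actin genes had a median of -0.22 at 1 µM and 0.60 at 1 mM. ARRDC3, at -2.38 (SE 0.32) at 1 µM, and TIMP3, at -0.96 (SE 0.18), also differed, by 4.09 (adjusted p = 0.000406) and 2.16 (adjusted p = 8.45e-05). HES5 and HES1 had 1.67 and 1.57 at 1 µM, and differed by -2.66 (adjusted p = 0.0173) and -1.51 (adjusted p = 0.00539).

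VEGFA, CLK1 and MSMO1 had values of the same sign at both doses and a difference that did not pass. VEGFA was at -1.20 (SE 0.20) at 1 µM, with a difference of -1.46 (SE 0.35, adjusted p = 0.0777). CLK1 was at -1.45 (SE 0.26) and differed by -0.11 (SE 0.27, adjusted p = 0.921), and MSMO1 was at -1.35 and differed by 0.24 (SE 0.14). Glycolysis genes had a median of -0.98 at 1 µM and -0.62 at 1 mM, and HIF targets -0.47 and -0.98. Wnt genes had medians of 0.06 and 0.38. Each of these 3 lists held 1 gene whose difference passed, namely WSB1, with 0.29 at 1 µM and -1.23 at 1 mM, PKM, with -0.98 and 0.19, and DKK2, with -2.21 and 1.69. A difference that did not pass does not show that the doses act alike.

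The Acute 24 h and chronic groups of the 1 mM experiment share these PBS libraries. Their levels are therefore given only as a description, as mean TPM ± SD, with Acute 24 h for VEGFA alone. VEGFA had 163 ± 44.2 in PBS, 24.5 ± 8.80 at Acute 1 h and 34.9 ± 20.4 at Acute 24 h. It had 69.4 ± 1.96 at Chronic 1 h and 55.6 ± 19.8 at Chronic 24 h. Its mean was thus lower than in PBS at Acute 24 h and in both chronic groups as well. CCN1 had 13.97 ± 5.67 in PBS, 305 ± 50.5 at Acute 1 h, 49.5 ± 14.1 at Chronic 1 h and 10.3 ± 0.894 at Chronic 24 h, highest at Acute 1 h. SOCS3 had 8.18 ± 1.53 in PBS, 85.2 ± 12.1 at Acute 1 h, 130.2 ± 11.1 at Chronic 1 h and 7.68 ± 1.81 at Chronic 24 h, with high values in both groups sequenced 1 h after a dose. CLK1 had 154 ± 2.60 in PBS, 49.7 ± 1.505 at Acute 1 h, 72.6 ± 2.45 at Chronic 1 h and 126 ± 22.1 at Chronic 24 h, lowest in the same pair of groups. In the 1 µM experiment VEGFA had 66.1 ± 12.9 in PBS and 28.9 ± 9.29 at Acute 1 h, CCN1 14.5 ± 5.02 and 31.2 ± 12.5, and CLK1 139 ± 11.6 and 49.2 ± 8.97. VEGFA thus stood higher in the PBS libraries of the 1 mM experiment than in those of the 1 µM experiment, while its Acute 1 h levels were close, and no test was made between the experiments.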

How the data were processed

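RNA of 3 PBS and 3 Acute 1 h cultures of the 1 mM experiment was sequenced by the authors, who mapped reads to GRCh38 with Ensembl release 102 in CLC Genomics Workbench. The authors deposited, for each of 60676 genes, counts of exon reads, intron reads, total gene reads and uniquely mapped gene reads, and TPM values. Reads of a gene without annotated exons were counted as intron reads in these tables. The kit's strand, the strand used in counting and which of 2 sequencing providers made each library were not given in the sources used here. Counts carry counting error, and a count of 3 reads was used as the floor under which no fold is given.

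Tests on counts used the quasi-likelihood test of edgeR 4.0.16 (R 4.3.3) with TMM scaling and Benjamini-Hochberg adjustment over all genes tested, after edgeR's expression filter (minimum count 10, minimum total 15), with only these 2 groups in the fit and no covariate. The SE is the absolute log2(fold change) over the square root of F. DESeq2 1.42.0 was run as an alternative, and other normalizations, filters, thresholds, libraries in the fit, the replicate block and each left-out library were also tried. The difference between doses was the interaction in 1 fit of 12 libraries. Scripts were tested on simulated data. Figures and summaries used Python 3.11.15 with pandas 2.3.3 and matplotlib 3.10.9.

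The comparison, 32 pathway lists and 13 marker lists were chosen with earlier results of these data known, and no list is independent evidence. Genes named are fixed anchors of each list and, by list, up to 3 members per direction with the largest change among those past the test. These members averaged 1 TPM or more in the higher group and did not overlap between the groups, but need not be DEGs. Also named are up to 12 genes outside the lists, 6 by change in level, and genes whose intron reads moved with or against exon reads. Other members and the genes with printed promoters were chosen after their values were seen. Promoters came from RefSeq (GRCh38.p14), which matched 12018 tested genes. Some named genes are not reported here.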

Additional observations from a re-analysis of the deposited data

Results flagged for a closer look

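For 25 of the genes named with values, the log2(fold change) at 1 mM differed from that at 1 µM by the test of the difference in edgeR, which 0.935% of all genes passed. A positive difference below means a larger log2(fold change) at 1 mM. Which genes pass depends on single libraries, since the number of genes past this test ran from 60 to 601 as 1 of the 12 libraries was left out.

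Genes of the actin cytoskeleton and YAP targets made up 8 of them, with GADD45A below. The difference was 4.02 for ACTA2 (SE 0.47, adjusted p = 0.00187), 3.71 for TAGLN (SE 0.65, adjusted p = 0.0173) and 1.67 for TPM1 (SE 0.18, adjusted p = 0.00147). For the matricellular genes it was 3.74 for CCN2 (SE 0.28, adjusted p = 8.45e-05) and 3.40 for CCN1 (SE 0.43, adjusted p = 0.00301). MYH9, a heavy chain of non-muscle myosin, differed by 0.89 (adjusted p = 0.0175) and MYOF, which encodes myoferlin, by 2.03 (adjusted p = 0.035).

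Among secreted and membrane proteins, ADAMTS1 differed by 2.81 (adjusted p = 0.000997), TIMP3 by 2.16 (adjusted p = 8.45e-05) and BMP2 by 1.57 (adjusted p = 0.0236). KCNJ2 differed by 3.15 (adjusted p = 0.0211), GJA1 by 1.20 (adjusted p = 0.0103) and SLC30A1 by 1.06 (adjusted p = 0.0287). ARRDC3 had the widest difference of the 25, 4.09 (SE 0.37, adjusted p = 0.000406).

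DKK2, a secreted Wnt regulator, differed by 3.90 (adjusted p = 0.00399) and PKM, a pyruvate kinase, by 1.19 (adjusted p = 0.0111). The histone gene H2AC6 differed by 3.10 (adjusted p = 0.00218). Regulators of transcription and RNA made up the rest. ATF3 differed by 2.37 (adjusted p = 0.00392), GADD45A by 1.52 (adjusted p = 0.00147), ZFP36 by 2.40 (adjusted p = 0.0485) and ZNF503 by 1.31 (adjusted p = 0.0209). Negative differences were found for HES5 at -2.66 (adjusted p = 0.0173), HES1 at -1.51 (adjusted p = 0.00539), WSB1 at -1.49 (adjusted p = 0.00422) and NKTR at -1.13 (adjusted p = 0.0143). At 1 µM HES1 had 1.57 (SE 0.20) and at 1 mM 0.034 (SE 0.075).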

How the results depend on the processing

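The 1002 exon DEGs numbered 899 with DESeq2's Wald test, 1203 without a filter on low counts, 689 with at least 10 reads in every library, 730 in a fit of the 15 libraries of the 1 mM experiment and 906 to 1129 without 1 library. The 7592 genes past the test in exon reads, on which the list counts rest, fell to 2845 in the fit of 15 libraries and were 7236 when the first Acute 24 h library was left out of that fit. Without a threshold on the fold change there were 7474 DEGs. The 1339 DEGs in total gene reads became 1275 with DESeq2, 1314 with uniquely mapped reads and 1223 to 1423 without 1 library. They were 10117 without the fold threshold and 6009 without the TPM threshold, and with at least 10 reads in every library they were 1092, of which 37.2% were higher in place of 48.1%. The 11286 genes past the test in intron reads became 8331 to 12424 without 1 library, 10883 with genes that have annotated exons and an intron, a setting chosen after seeing the data, and 16181 when scaled as exon reads, of which 3.40% were higher in place of 46.0%.

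Replicate numbers did not pair the 6 libraries compared here, as the correlations of same-numbered deviations were 0.10, -0.21 and 0.02 in exon reads. Pairing was not examined in the 1 µM libraries. The replicate block gave 996 exon DEGs, 1279 DEGs in total gene reads and 10103 genes past the test in intron reads. For the dose difference, which also uses the 1 µM libraries, it gave 582 genes in place of 159.

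At this depth, list members below the expression filter could not be tested, and PBS and Acute 1 h differed in intron depth. The dose difference gave 159 genes, 791 with DESeq2's Wald test, 6235 in total gene reads and 60 to 601 without 1 library. It was 60 without Acute 1 h replicate 3 of 1 mM, 242 without PBS replicate 2 of 1 µM, and 601 and 400 without Acute 1 h replicates 2 and 3 of 1 µM.

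The counts of list members in the HIF, actin and YAP lists stayed within 1.5 times the reported ones under every alternative run. In the glycolysis, Wnt and BMP lists the exceptions were 7 lower glycolysis genes in total gene reads without Acute 1 h replicate 2 (range 7 to 12 over the libraries) and, with 15 libraries, 19 higher Wnt genes, 13 higher TGF-beta and BMP genes and 23 in total gene reads. The counts of list members in intron reads were a setting added after seeing the data. For the other lists, 276 counts moved by more than 1.5 times and 1908 did not.

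Median log2(fold change) values by gene length, reported for intron reads, depended on the reads and their scaling. For exon reads, total gene reads and intron reads scaled as exon reads they were 0.090, 0.35 and -0.34 under 10 kb, 0.024, 0.054 and -0.85 from 10 to 30 kb, -0.041, -0.14 and -1.19 from 30 to 100 kb and -0.042, -0.23 and -1.34 from 100 to 300 kb. Over 300 kb they were -0.051 in exon reads and -1.60 when scaled as exon reads, and for the zinc finger genes -0.021, 0.11 and -0.77.

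Of 5008 values of named genes under other settings, 4803 kept direction and call, 159 lost the call, 37 gained it and 9 changed sign, all in total gene reads. The latter were DUSP8 at 0.15 (adjusted p = 0.111), DVL1 at 0.050 (adjusted p = 0.523), GAPDH at 0.078 (adjusted p = 0.362), HIF1A at 0.26 (adjusted p = 0.0118), HSPA1B at 0.24 (adjusted p = 0.0434), LRP6 at 0.019 (adjusted p = 0.76), MKI67 at 0.29 (adjusted p = 0.00532), SOX2 at 0.26 (adjusted p = 0.00306) and SPRED1 at 0.021 (adjusted p = 0.782).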

Other observations

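Several lists that are not described above moved in smaller numbers. Of 39 axon guidance genes tested, 11 were higher and 11 lower in exon reads, close to the shares of all genes, and 17 were higher and 8 lower in total gene reads. SLIT2, a secreted repellent of growing axons, rose from 58.3, 49.5 and 51.99 TPM in PBS to 93.9, 92.5 and 91.8 at Acute 1 h, a log2(fold change) of 0.84 (adjusted p = 1.69e-06, SE 0.063), and EPHB2, a receptor for membrane-bound ephrins, rose by 0.65. EPHA5, another ephrin receptor, fell from 44.6, 55.8 and 64.95 to 27.2, 28.4 and 23.97, a log2(fold change) of -1.01 (adjusted p = 3.94e-05, SE 0.12), and SEMA3A, a secreted semaphorin, fell by 0.71. Of 20 genes of transcription pausing and elongation 8 were higher and 4 lower, and 14 and 1 in total gene reads. HEXIM1 and MEPCE, which belong to the RNA-protein complex that holds the elongation kinase P-TEFb inactive, rose by 0.73 and 0.66. Of 23 EGF and FGF family ligands and receptors 6 were higher and 4 lower in exon reads, and of 26 tested in total gene reads 7 were higher and 8 lower, and 5 of the 8 receptors were among the genes higher in exon reads. The 11 genes of dopamine synthesis, transport and breakdown that could be tested held 1 higher and 1 lower gene in exon reads, and of 16 tested in total gene reads 3 were higher and 6 lower. In exon reads the lower gene was MAOA, which encodes a monoamine oxidase, at -0.42 (SE 0.12, adjusted p = 0.0148). Of 13 mitochondrially encoded genes 2 were higher and 3 lower in exon reads, whereas 11 were higher in total gene reads and the other 2 did not pass. Their median log2(fold change) was -0.11 in exon reads and 0.24 in total gene reads. All tested genes under 10 kb had medians of 0.09 and 0.35, so this gap between the kinds of read is not particular to mitochondrial genes. MT-ND4, a subunit of complex I, had a TPM of 9590.0, 8965 and 9999 in PBS and 7356, 6568 and 6455 at Acute 1 h, a log2(fold change) of -0.44 in exon reads and of -0.091 (adjusted p = 0.336) in total gene reads.

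Among marker lists, 4 of the 8 interneuron markers could be tested and all 4 were lower. CALB2, which encodes calretinin, had a TPM of 180.1, 143 and 132 in PBS and 99.5, 106 and 83.7 at Acute 1 h, a log2(fold change) of -0.61 (adjusted p = 0.00086, SE 0.11), and SST, somatostatin, had 33.9, 59.6 and 61.6 in PBS and 33.4, 24.9 and 25.5 at Acute 1 h, a log2(fold change) of -0.84 (adjusted p = 0.0103, SE 0.23). The summed TPM of the 8 markers was 212 to 225 in PBS and 114 to 140 at Acute 1 h, without overlap. The 6 GABA neuron markers overlapped, at 67.4 to 84.3 and 75.0 to 77.2, as did the 8 mesenchymal markers, at 85.1 to 126 and 101.9 to 111, and the 6 markers of the oligodendrocyte lineage, at 86.8 to 101 and 98.1 to 112. Markers of pluripotent cells summed to at most 2.27 and those of endothelial cells to at most 23.4 in any library.

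The gene families in this paragraph were chosen after their values were seen, and their counts are descriptions. Of 36 histone genes tested, 24 were higher and 1 lower in exon reads and 13 were DEGs that rose, with a median log2(fold change) of 0.83. H2AC6, a histone H2A gene, had a TPM of 17.9, 15.7 and 13.8 in PBS and 76.5, 61.4 and 63.4 at Acute 1 h. Histone genes have near-identical copies, so the division of reads among them is uncertain. Of 34 proteasome subunit genes 27 were higher and 1 lower with a median of 0.31, whereas of 78 ribosomal protein genes 8 were higher and 1 lower with a median of 0.04. Of 14 KLF transcription factor genes 10 were higher and 1 lower. Of 12 GOLGA6 and GOLGA8 genes, which are near-identical copies of each other, 8 were lower and the others did not pass. Among 1816 long noncoding RNA genes tested, 179 were DEGs that fell (9.86%) and 66 were DEGs that rose (3.63%), beside 357 (2.47%) and 362 (2.50%) of 14476 protein-coding genes.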
